A study of Mus musculus with 18 samples.

Results

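Heart muscle taken 10 min after a coronary artery was tied was compared with heart muscle of sham-operated mice, 3 libraries against 3, which is 6 of the 18 libraries of the series. Libraries were assigned to the groups by their labels. All mice were 12-week-old C57BL/6JR males, 1 per library, anaesthetised with sodium pentobarbital and, before they were killed, with isoflurane. In the MI 10 min group (MI, myocardial infarction) a ligature closed the left anterior descending coronary artery; the sham group, labelled control, had the suture passed and left untied. The labels give myocardial tissue with cardiomyocytes as cell type, and they mention neither an isolation of cells nor which part of the ventricle was sampled. All p-values measure the spread between these mice.

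Methylated DNA immunoprecipitation sequencing (MeDIP-seq) pulls down sheared DNA with an antibody against 5-methylcytosine. A peak marks a stretch where methylated CpG dinucleotides are dense enough to be captured, and it does not give the percentage of methylated molecules. In mammals the mark is placed by DNMT enzymes and removed by TET oxidation or by dilution when cells divide, and adult heart muscle cells rarely divide. Within minutes of losing their blood supply these cells run short of ATP and stop contracting, while white blood cells enter the tissue later.

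Overlapping peaks of the 6 libraries were merged into regions. A region was called gained when 3 of 3 MI 10 min and 0 of 3 sham libraries had a peak there, and lost in the reverse case; the words name the pattern of peaks only. No single region was tested, because 3 libraries against 3 cannot pass a correction over so many regions.

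RefSeq promoter windows (GRCm38.p6, 250 bases before to 50 bases after a start) numbered 21263 for 17492 protein-coding genes. Of these windows 878 touched a merged region, and of those 878, 4 touched a gained and 8 a lost region. Counted by region and not by window, 0.309% of all merged regions were gained and 0.886% lost. With only equal numbers of top-scoring peaks from each library, the regions at Usp26 and H1f7 were still called and those at the other 10 windows were not. The gained regions reached the windows of B3galt5, Ackr4, Gm32280 and Olfr750. The lost regions reached those of Usp26, Faiml, Rps27rt, Col9a2, H1f7, Bnip5, Ttc41 and E2f6. The 250 bases before the start are shown for 4 of the 12, because the CpG dinucleotides, in capitals, are what the antibody can capture there. They are read 5′ to 3′ on the strand of the gene, Ackr4 at chr9:104126644-104126893, minus strand, B3galt5 at chr16:96235551-96235800, plus strand, Usp26 at chrX:51801234-51801483, minus strand, and E2f6 at chr12:16810715-16810964, plus strand.

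Ackr4: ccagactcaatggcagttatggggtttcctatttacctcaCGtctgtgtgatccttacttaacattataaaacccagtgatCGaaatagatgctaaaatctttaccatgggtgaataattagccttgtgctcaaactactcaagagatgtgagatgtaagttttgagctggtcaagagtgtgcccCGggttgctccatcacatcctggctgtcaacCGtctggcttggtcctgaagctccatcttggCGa
B3galt5: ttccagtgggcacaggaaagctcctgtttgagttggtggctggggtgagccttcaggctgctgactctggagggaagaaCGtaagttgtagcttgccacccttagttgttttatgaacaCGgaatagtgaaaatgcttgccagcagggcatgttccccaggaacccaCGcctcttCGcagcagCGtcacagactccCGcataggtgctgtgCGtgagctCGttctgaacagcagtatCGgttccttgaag
Usp26: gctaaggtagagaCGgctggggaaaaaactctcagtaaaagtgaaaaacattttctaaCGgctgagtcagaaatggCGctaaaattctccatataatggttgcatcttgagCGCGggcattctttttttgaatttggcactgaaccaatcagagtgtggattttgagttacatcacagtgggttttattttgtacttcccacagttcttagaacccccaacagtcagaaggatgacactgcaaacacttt
E2f6: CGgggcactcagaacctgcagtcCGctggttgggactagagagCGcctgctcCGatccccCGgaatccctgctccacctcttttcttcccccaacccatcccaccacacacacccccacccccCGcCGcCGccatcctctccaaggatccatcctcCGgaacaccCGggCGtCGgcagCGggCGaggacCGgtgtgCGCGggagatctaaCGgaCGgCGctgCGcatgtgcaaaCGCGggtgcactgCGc

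Ackr4, an atypical chemokine receptor that scavenges CCL19 and CCL21, held 5 CpG in the bases shown, and its window was wholly under the gained region, which also lies in Acad11. B3galt5, a galactosyltransferase of glycan chains, held 9 CpG and was wholly covered too. Usp26, a deubiquitinase known from testis, held 5 CpG and lay wholly under a lost region. E2f6, a repressor of the E2F family, held 24 CpG, but the lost region covered only 10 bases at the upstream end of its window. The CpG-rich stretch itself was thus outside the lost region.

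Over the whole windows the median was 13 CpG for all promoters and 7 for the 878 windows that touched a region of any of the 6 libraries. It was 10.5 (8 to 12) for the 4 gained and 7.5 (1 to 29) for the 8 lost windows. The lost regions covered only 177 bases of the window of Col9a2, 43 of H1f7, 42 of Ttc41, 34 of Bnip5 and 10 of E2f6. The lowest and highest CpG counts of the lost windows were those of Ttc41 and E2f6. Counts of CpG and of the motifs below are for whole windows, so a match need not lie under the region. GGGCGG, the GC box, was found on either strand in 46.2% of all windows, in 19.4% of the 878 that touched a region, in 0 of 4 gained and in 2 of 8 lost ones, Col9a2 and Bnip5. ACGTG, one form of the core of the hypoxia response element, was found on either strand in 20.9% of all windows and in 20.7% of those 878. It was in 2 of 4 gained windows, Ackr4 and Olfr750, and in 0 of 8 lost ones. Other forms of that core were not counted. TGACGTCA, the cyclic AMP response element, was in 2.23% of all windows, in 1.14% of those 878 and in 0 of these 12. TGACGTCA and ACGTG can overlap, and a match of letters is a description only.

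Each peak carries a score that is the authors' own and whose scale is not stated; it is used here to describe and rank peaks. The lowest score was 50 in each of the 6 lists and the medians lay between 69.1 and 75.4. At Ackr4 the scores were 59.2, 53.0 and 83.4 in MI 10 min replicates 1, 2 and 3. At B3galt5 they were 53.8, 79.5 and 56.6. At Usp26 they were 92.2, 86.3 and 82.0 in sham replicates 1, 2 and 3. At E2f6 they were 60.4, 60.3 and 62.9. The Usp26 peaks were above the median of their list in all 3 sham libraries and the E2f6 peaks below it in all 3, while the MI 10 min scores at Ackr4 and B3galt5 were above it in 1 library each.

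The first comparison asked how much sequence was called methylated 10 min after ligation. The MI 10 min lists held 52259, 37084 and 44028 peaks in replicates 1, 2 and 3, and the sham lists 49404, 60130 and 44328. The groups overlapped: the longest list was sham replicate 2 and the shortest MI 10 min replicate 2, but MI 10 min replicate 1 was longer than sham replicates 1 and 3. The means were 44457 ± 7597 and 51287 ± 8068 peaks (SD, n = 3 each), a difference of -6830 (two-sided exact permutation p = 0.4, adjusted p = 0.75 over 5 measures). Without sham replicate 2 the difference was -2409, and without MI 10 min replicate 2 it was -3144. Peaks covered 49.6 ± 5.82 Mb in MI 10 min and 54.6 ± 7.07 Mb in sham (SD, n = 3 each), a difference of -4.99 Mb (exact permutation p = 0.5, adjusted p = 0.75). With the 37084 top-scoring peaks of each library, called equal lists below, the difference was 1.39 Mb (exact permutation p = 0.6). With 20 assignments of 3 against 3 libraries the smallest possible p is 0.1.

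The position of peaks along genes did not differ beyond the spread of the libraries. The midpoint lay in a protein-coding gene for 45.3% ± 1.15 of peaks in MI 10 min and 46.3% ± 0.869 in sham (SD, n = 3 each; exact permutation p = 0.4). A promoter, here 2000 bases before to 500 after a start, was touched by 2.48% ± 0.0564 and 2.47% ± 0.0832 of peaks (SD, n = 3 each; exact permutation p = 1). Mean peak width was 1127 ± 127 and 1070.2 ± 86.0 bases (SD, n = 3 each; exact permutation p = 0.6), and the difference of 57.0 bases became -15.1 without MI 10 min replicate 2. All 6 libraries, from male mice by label, had between 468 and 720 peaks on the Y chromosome.

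**Figure D1:**
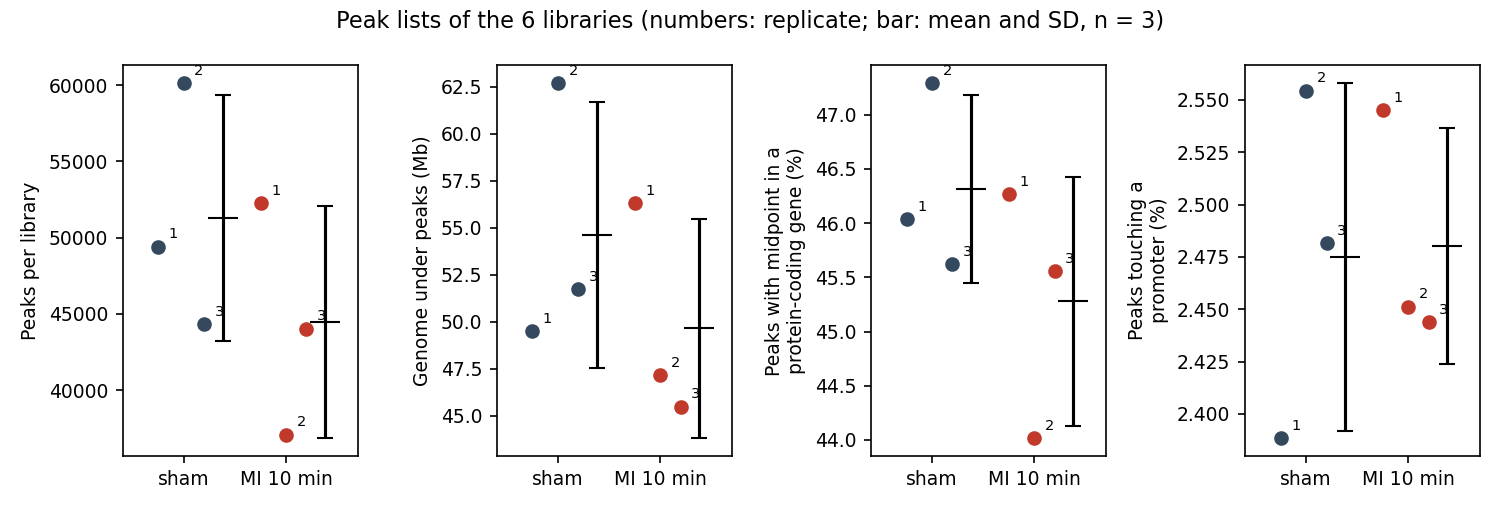
Number of peaks, genome length under peaks in Mb, share of peaks with the midpoint in a protein-coding gene and share of peaks touching a promoter (y axes, not starting at 0) for the sham and MI 10 min groups (x axis). Points are libraries numbered by replicate, bars are mean and SD (n = 3), and the groups overlap in all 4 panels.

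Libraries of one group were not detectably more alike than libraries of different groups. The Jaccard index, which is the shared peak length of a pair of libraries over their joint peak length, averaged 0.352 over the 3 MI 10 min pairs, 0.367 over the 3 sham pairs and 0.363 over the 9 mixed pairs. The highest index, 0.401, joined MI 10 min replicate 1 with sham replicate 2, and the lowest, 0.332, joined MI 10 min replicate 2 with that same sham library. Pairs within a group minus mixed pairs gave -0.00338 (one-sided exact permutation p = 0.7 over 10 splits). Without MI 10 min replicate 1 the value was 0.00540 (exact permutation p = 0.3).

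The merged set held 107272 regions, and their median width was 1041 bases. Of these, 331 were gained (0.309%) and 950 lost (0.886%), together 1.19%. With equal lists there were 85153 regions, 481 gained (0.565%) and 502 lost (0.59%), together 1.15%. Lost regions outnumbered gained ones where the sham lists were longer on average, and the numbers were close where all lists had one length. Lists of one length also take away any true difference in the total. Of the 331 gained regions 170 were gained with equal lists too, and of the 950 lost regions 310 were lost too. Leaving out any 1 library, which asks for 1 peak or 1 absence fewer, gave 615 to 1554 gained and 1491 to 3252 lost regions.

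The neighbouring patterns show what lies just outside the rule. A peak in 3 of 3 MI 10 min and 1 of 3 sham libraries was found in 1365 regions, and in 2 of 3 and 0 of 3 in 2532. On the other side, 2709 regions had a peak in 1 of 3 MI 10 min and 3 of 3 sham libraries, and 5229 in 0 of 3 and 2 of 3. In all, 12970 regions had a peak in all 6 libraries. The median peak score was 64.1 in gained, 66.9 in lost and 104 in regions found in all 6. It was 65.3 in regions with 2 of 3 MI 10 min and 1 of 3 sham libraries, and 66.3 with 1 of 3 and 2 of 3. Called regions were thus built from low-scoring peaks, as were these mixed patterns. Of the gained regions 20, and of the lost regions 101, were still called when only peaks scoring at least 70 were used.

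**Figure D2:**
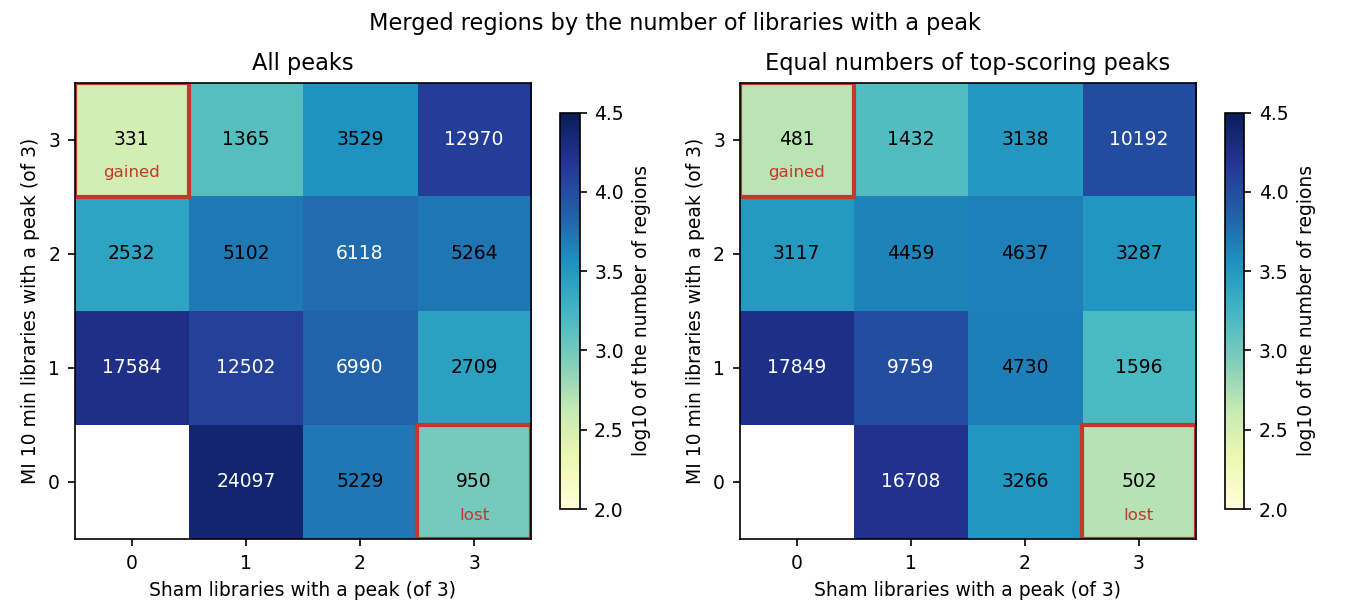
Number of merged regions (colour on a log10 scale, with the number in each cell) by how many of the 3 sham libraries (x axis) and of the 3 MI 10 min libraries (y axis) had a peak, for all peaks (left) and equal lists (right). Red frames mark gained and lost regions, 331 and 950 on the left and 481 and 502 on the right.

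The location of called regions is given beside that of all regions. A protein-coding gene was touched by 163 gained (49.2%) and 509 lost regions (53.6%), against 48.6% of all regions. No annotated gene was touched by 41.4% of gained, 37.7% of lost and 41.4% of all regions. A promoter was touched by 11 gained (3.32%) and 26 lost regions (2.74%), against 2.59% of all. Among the 2777 regions at promoters, 0.396% were gained and 0.936% lost. The median distance from the nearest start with a known strand was 51470 bases for gained, 57297 for lost and 52778 for all regions. It was 61366 for the gained and 60595 for the lost regions that were also called with equal lists. Gained regions made up between 0.188% (chromosome 8) and 0.442% (chromosome 11) of a chromosome's regions, and lost regions between 0.697% (chromosome 4) and 1.06% (chromosome 17). Exonic and intronic positions were not analysed here.

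The gained regions named first are the 10 with the highest lowest score among those also gained with equal lists. The region on chromosome 18 from 12154854 to 12156119 within Riok3, an atypical protein kinase, scored 90.6, 88.2 and 93.6 in MI 10 min replicates 1, 2 and 3. These scores were close to each other, and 8 of the 12 libraries taken from 1 h to 72 h had a peak there. The region on chromosome 16 from 13905528 to 13906112 within Mpv17l scored 89.8, 85.0 and 131. The region on chromosome 4 from 108472940 to 108473678 within Tut4, which adds uridines to the ends of RNA, scored 85.3, 76.9 and 111. In both, replicate 3 was the highest.

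Elk4, a partner of serum response factor, had a gained region 8415 bases upstream of the gene, on chromosome 1 from 131998203 to 131999161, with scores of 100, 131 and 83.8. Myh10, a non-muscle myosin heavy chain, had one 30750 bases upstream, on chromosome 11 from 68660561 to 68661164, with scores of 80.9, 76.9 and 81.8. Only 1 of the 12 later libraries, at 72 h, had a peak at the Myh10 region, against 7 at the Elk4 region. Within the long noncoding RNA gene Mir670hg the scores were 108, 93.4 and 81.7, and within C130026L21Rik they were 83.9, 76.9 and 116. The last regions of the 10 lay 89041 bases from Gm41012 and 205178 bases from the pseudogene Gm46190, and in Col8a1.

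Col8a1, a short-chain collagen of vessel walls, carried both patterns. Its gained region on chromosome 16 from 57626395 to 57627516 scored 83.4, 78.1 and 74.7 in MI 10 min replicates 1, 2 and 3. Its lost region on chromosome 16 from 57738948 to 57740261 scored 66.7, 95.5 and 83.5 in sham replicates 1, 2 and 3. Both were also called with equal lists, but the lost one was no longer called when 50% of the region had to be covered or with scores of at least 70. Each had a peak in 5 of the 12 later libraries. In all, 165 of 21887 protein-coding genes held a gained region, 518 a lost region and 17 both. Of all regions 0.309% were gained and 0.886% lost. Genes differ in the number of regions they hold, for example 44 in Aff3 and 2 in Scaf8, so gene counts are a description only.

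The 10 lost regions chosen the same way included 3 within a gene. Within Stxbp5, which restrains vesicle fusion, the region on chromosome 10 from 9761987 to 9763178 scored 117, 108 and 103 in sham replicates 1, 2 and 3. Within Macrod1, which removes ADP-ribose from proteins, and the overlapping Flrt1, the region on chromosome 19 from 7137927 to 7139046 scored 116, 130 and 91.0. Within the noncoding Gm27166 the scores were 148, 105 and 116. The choice by the lowest score itself puts all 3 sham libraries far above the lowest score of 50 at these regions.

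The other 7 lay outside genes. The highest-ranked of all, on chromosome 9 from 12366278 to 12367596, was 131864 bases from the pseudogene Gm29785 and scored 121, 123 and 131 in sham replicates 1, 2 and 3. It had no peak in the MI 10 min libraries and one in 11 of the 12 later ones. The region on chromosome 4 from 72078221 to 72079262, 30682 bases from Tle1, a Groucho corepressor, scored 99.0, 109 and 117, and it was no longer called when 50% of the region had to be covered. The region 3564 bases from Fyb, an adaptor of T cells and platelets, scored 89.9, 99.5 and 114, and the one 431 bases from the noncoding Snhg6 88.6, 123 and 153. Those nearest to the pseudogenes Gm29770 and Gm21007 and to the olfactory receptor gene Olfr514 had lowest scores of 96.7, 93.6 and 93.3, and the one nearest to Gm21007 also lost its call with 50% coverage. Later peaks were found in 3 of 12 libraries at the Olfr514 region and in 6 to 11 at the other 9 lost regions.

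At promoters, the 10 gained regions named by score lay at Slc24a2, Vmn2r11, Sp1, Edn2, Nkg7, Gm32280, B3galt5, Uts2r, Ackr4 and Cbx6. Edn2, a vasoconstrictor of the endothelin family, had its region 604 bases upstream of the gene, with scores of 57.6, 75.5 and 106 in MI 10 min replicates 1, 2 and 3. Uts2r, the urotensin receptor, had one 1519 bases upstream, with 53.6, 69.8 and 71.2. Sp1, a zinc finger factor that binds GC boxes, scored 155, 65.8 and 59.0, high in replicate 1 alone. Slc24a2, an exchanger of sodium for calcium and potassium, scored 67.4, 70.9 and 81.6 at a region centred 703 bases after the start. Of these 10, Slc24a2, Vmn2r11, Sp1 and Nkg7 were also gained with equal lists and the other 6 were not, and Slc24a2 and Nkg7 were not gained with 50% coverage.

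The 10 lost promoter regions named by score lay at Usp26, H2-M10.2, Gm46915, Syt3, Defa22, Chtf18, H1f7, Col9a2, Pole3 and Ap3b2. H2-M10.2, a class Ib histocompatibility gene, scored 108, 77.3 and 96.7 in sham replicates 1, 2 and 3. Syt3, a synaptotagmin, scored 70.8, 88.6 and 85.8. H1f7, a linker histone of spermatids, scored 100, 68.1 and 65.6, and 9 of the 12 later libraries had a peak there. Col9a2, a cartilage collagen chain, scored 65.5, 63.3 and 75.0, and Pole3, a subunit of DNA polymerase epsilon, 78.1, 64.7 and 62.4. Of these 10, all except Col9a2 and Pole3 were also lost with equal lists, and Syt3 was not lost with 50% coverage.

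Genes of the heart and of ischaemia were read from 17 lists with 350 genes, counting regions in a gene or within 2000 bases of it. Of 1320 regions there, 5 were gained (0.379%) and 15 lost (1.14%), against 0.309% and 0.886% of all regions, so the shares were near the background. With equal lists 6 were gained and 9 lost of 1029. The immediate early genes, such as Fos and Egr1, which are transcribed within minutes of a stimulus, had 12 regions with 0 gained and 0 lost. Genes of hypoxia and glycolysis had 70 regions with 0 gained and 0 lost, and the DNA methylation machinery 51 with 0 of either. With equal lists 1 region of the immediate early genes and 1 of the methylation machinery were lost.

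Genes that move calcium had 0 gained and 4 lost (1.89%) of 212 regions, against 0.309% and 0.886% of all regions. With equal lists they had 1 gained and 0 lost of 160, against 0.565% and 0.59% of all regions. Jph2, which ties the calcium stores to the cell membrane, had its lost region centred 850 bases after its start, on chromosome 2 from 163396472 to 163397774. Its scores were 52.5, 52.8 and 55.5 in sham replicates 1, 2 and 3, all just above the lowest score of 50. Cacna1c, the pore of the L-type calcium channel, scored 66.9, 109 and 51.2 on chromosome 6 from 118976251 to 118977359. Itpr2, an inositol trisphosphate receptor that releases stored calcium, held 2 lost regions of 39, with scores of 57.5, 65.5 and 76.6 in one and 57.4, 103 and 56.6 in the other. None of these 4 regions was lost when equal lists were used.

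Genes of adrenergic and cyclic AMP signalling had 1 gained (0.505%) and 3 lost (1.52%) of 198 regions, against 0.309% and 0.886% of all regions. Pde4d, which breaks down cyclic AMP, was gained on chromosome 13 from 109696930 to 109698211 with 74.8, 73.0 and 71.0 in MI 10 min replicates 1, 2 and 3. The 3 scores were close together, the region was also gained with equal lists, and 10 of the 12 later libraries had a peak there. Pde8a, another phosphodiesterase, was lost with 67.6, 66.8 and 64.8 in sham replicates 1, 2 and 3. Gnai2, an inhibitory G protein subunit, was lost with 60.5, 72.4 and 58.5. Adcy9, an adenylyl cyclase, was lost with 52.2, 76.3 and 51.7. Of these 3 lost regions, that of Gnai2 was also lost with equal lists, and those of Pde8a and Adcy9 were not.

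Cardiac transcription factors had 0 gained and 3 lost (2.91%) of 103 regions, against 0.309% and 0.886% of all regions. With equal lists they had 0 of either, against 0.565% and 0.59% of all regions. Mef2a, a regulator of muscle genes, scored 56.9, 63.8 and 90.3 in sham replicates 1, 2 and 3. Nfatc2, a target of calcineurin, scored 62.0, 54.4 and 74.5, and Irx3, a factor of the conduction system, 53.4, 54.7 and 69.9. In each the highest score was in sham replicate 3. Gja1, connexin 43 of the gap junctions between heart muscle cells, gave the 1 lost region among 102 of the channel and gap junction genes. It lay on chromosome 10 from 56387789 to 56389041, scored 75.3, 72.8 and 50.2, and had a peak in 10 of the 12 later libraries. With equal lists it was not called, and the list had 0 lost of 79 regions.

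In the remaining lists called regions were few, and so were the regions. Fatty acid genes had 0 gained and 1 lost of 61, inflammation 0 and 1 of 39, and mural cell markers 0 and 1 of 33. TGF-beta and matrix genes had 2 gained and 1 lost of 152, cell death genes 1 and 0 of 97, and contractile genes 1 and 0 of 99. Markers of the other cell types had no called region with all peaks. Of all regions 0.309% were gained and 0.886% lost. Hadha, a subunit of the trifunctional enzyme of fatty acid oxidation, was lost with 94.5, 89.7 and 68.4 in sham replicates 1, 2 and 3. Sele, the endothelial E-selectin that slows leukocytes, was lost with 83.5, 77.9 and 59.5, and 1 of the 12 later libraries had a peak there. Notch3, a receptor of vascular smooth muscle, was lost with 69.9, 109 and 62.4. All 3 were also lost with equal lists. Casp8, the initiator caspase of death receptors, was gained with 65.0, 61.2 and 66.3 in MI 10 min replicates 1, 2 and 3. Tgfbr3, a co-receptor of TGF-beta, was gained with 59.7, 69.5 and 60.2, and Myl7, the atrial regulatory light chain, with 50.3, 58.9 and 54.3. Of these, Casp8 was also gained with equal lists and Tgfbr3 and Myl7 were not, and with 50% coverage Casp8 and Tgfbr3 were not gained. The Myl7 region, 1766 bases outside the gene, had a peak in 0 of the 12 later libraries.

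The share of gene span under peaks gave one value per library and list. Its mean was lower in MI 10 min for 14 of the 17 lists, as over all 21887 protein-coding genes, with 2.13% ± 0.304 against 2.41% ± 0.388 (SD, n = 3 each). For cardiac transcription factors the values were 1.91%, 1.39% and 1.99% in MI 10 min replicates 1, 2 and 3, and 2.02%, 2.81% and 2.07% in sham. For leukocyte markers they were 1.06%, 1.17% and 1.12%, and 1.43%, 1.32% and 1.19%. Those were the 2 lists whose groups did not overlap, each with the smallest possible p (exact permutation p = 0.1, adjusted p = 0.85 over 17 lists). When equal lists were used, the difference went from -0.538 to -0.111 percentage points for cardiac transcription factors (exact permutation p = 0.6). For leukocyte markers it turned from -0.194 to 0.111 (exact permutation p = 0.7).

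**Figure D3:**
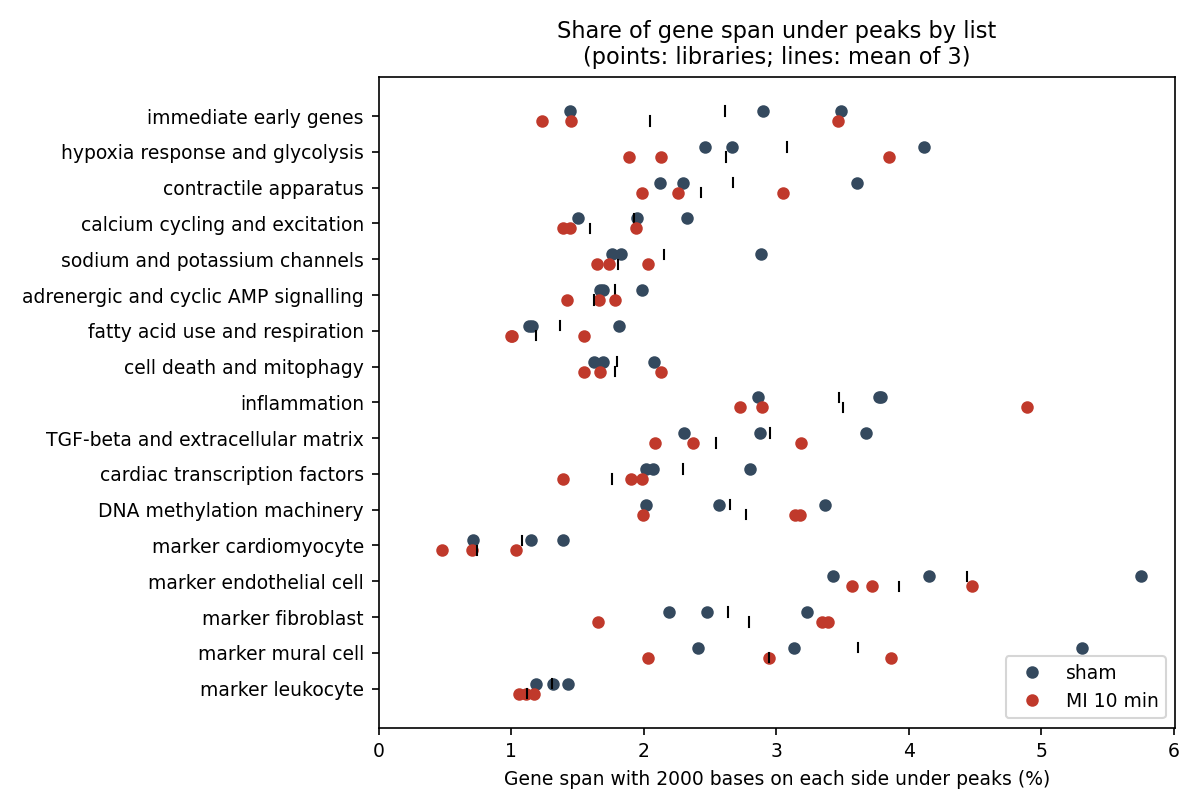
Share of the span of each list's genes, with 2000 bases on each side, that lay under peaks (x axis, percent) for 17 gene lists (y axis). Points are libraries of the sham (dark) and MI 10 min (red) groups and short lines their means (n = 3), and the groups overlap except for cardiac transcription factors and leukocyte markers.

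The peak lists hold no RNA, so the labelled cell type could not be checked by expression. The span under peaks of 10 cardiomyocyte genes such as Myh6 and Tnnt2 was 0.740% ± 0.278 in MI 10 min and 1.08% ± 0.346 in sham (SD, n = 3 each), the lowest of the 17 lists in both groups. It was 3.92% ± 0.484 and 4.44% ± 1.19 for endothelial, 2.80% ± 0.987 and 2.63% ± 0.540 for fibroblast and 2.94% ± 0.917 and 3.62% ± 1.51 for mural cell genes (SD, n = 3 each). Among the marker lists of 5 cell types, the lost region in Notch3 was the only one called with all peaks. In tissue, a change in the mix of cells and a change within a cell type cannot be told apart.

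The 12 libraries taken between 1 h and 72 h, 3 at each of 4 times, had no part in the rule and show where the called regions stood later. A later library had a peak at 40.2% ± 6.56 of the 331 gained and at 46.0% ± 7.34 of the 950 lost regions (SD, n = 12 libraries), against 38.6% ± 4.60 of all regions. The gained share was below the lost share in all 12 later libraries, by 2.06 to 11.0 percentage points. With equal lists the shares were 49.2% ± 8.25 and 54.6% ± 8.19, against 45.0% ± 4.79 of all equal-list regions (SD, n = 12 libraries). The gained share was below the lost share in 11 of 12. Only the 6 compared libraries were cut to equal lists, and the later libraries kept all their peaks. At 1 h, the time nearest to 10 min, 38.3% ± 2.01 of gained and 43.8% ± 0.182 of lost regions had a peak (SD, n = 3). At 72 h these were 45.2% ± 9.18 and 53.9% ± 8.05 (SD, n = 3).

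Regions with a mixed pattern lay between. A later library had a peak at 41.6% ± 6.97 of the 5102 regions with 2 of 3 MI 10 min and 1 of 3 sham libraries, and at 43.2% ± 6.50 of the 6990 with 1 of 3 and 2 of 3 (SD, n = 12 libraries). With equal lists the mixed patterns had 52.2% ± 7.05 and 53.6% ± 6.40 (SD, n = 12 libraries), in the same order. For regions found in all 6, with all peaks, the share was 92.0% ± 2.62. Of the gained regions 14 (4.23%) had a peak in 0 of the 12 later libraries, and of the lost regions 12 (1.26%). At least 9 of the 12 had one for 25 gained (7.55%) and 135 lost regions (14.2%). Of all regions, which include those with a peak in 1 library and in all 6, 15.8% had a peak in 0 and 21.1% in at least 9 of the 12. Of the mixed patterns, which also have a peak in 3 of the 6 libraries, 2.55% and 2.23% had a peak in 0 of the 12. At least 9 had one for 10.1% and 11.6% of them, in the same order. The regions share their libraries, so these shares are descriptions with no test.

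**Figure D4:**
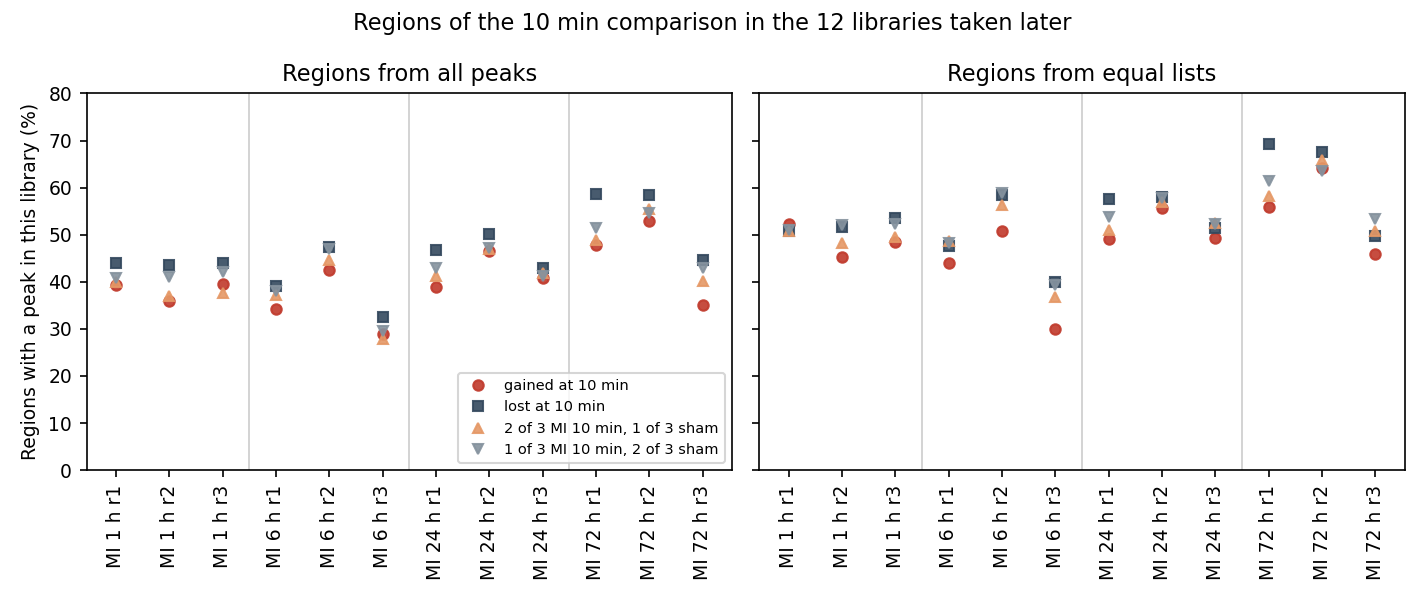
Share of regions with a peak (y axis, percent) in each of the 12 libraries taken from 1 h to 72 h after ligation (x axis, r for replicate), for regions from all peaks (left) and from equal lists (right). Red circles are regions gained and dark squares regions lost at 10 min, triangles are mixed patterns, and in the left panel each red circle lies below the dark square of its library.

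Single regions show both extremes. The 5 gained regions ranked first by later presence, with ties ordered by the lowest score, each with a peak in 10 of the 12 later libraries, were those in Pde4d and A26c2 and nearest to Gm41012, Ncf4 and Commd7. The one 6234 bases from Ncf4, a subunit of the phagocyte NADPH oxidase, scored 102, 65.6 and 74.4 in MI 10 min replicates 1, 2 and 3, and all libraries of 24 h and of 72 h had it. The one nearest to Commd7 scored 82.5, 53.4 and 62.1, and all libraries of 6 h, 24 h and 72 h had it. In the other direction, lost regions with a peak in 0 of the 12 included those in Acbd6 and Tspoap1 and nearest to Ifngas1 and Vmn1r55. The one in Acbd6, an acyl-CoA binding protein, scored 64.8, 68.7 and 93.4 in sham replicates 1, 2 and 3. The one 30463 bases from Ifngas1, a noncoding neighbour of the interferon gamma gene, scored 63.0, 93.3 and 73.7. These regions were chosen for their later values, which therefore test nothing.

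**Figure D5:**
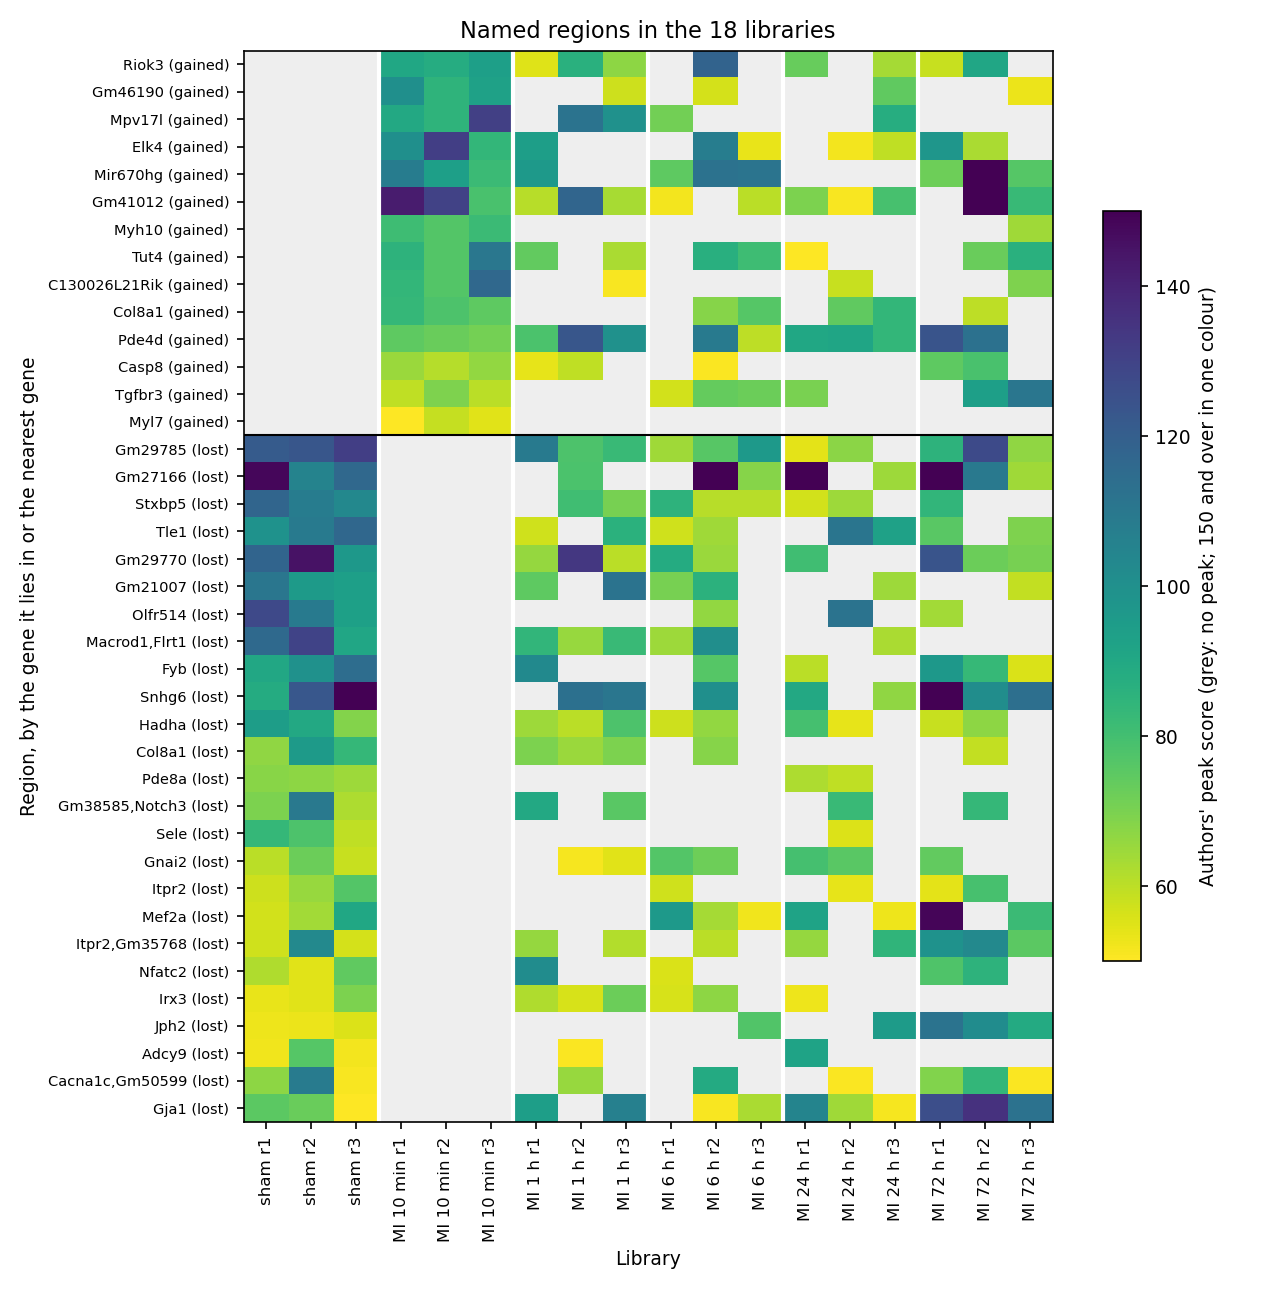
Authors' peak score (colour, grey for no peak) of the 10 gained and 10 lost regions ranked first by score and of the called regions of listed genes (y axis) in each of the 18 libraries (x axis, r for replicate). The rule fixes the sham and MI 10 min columns, and the later columns show peaks in some libraries and not in others for each region except Myl7, which had none.

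Few genes held more than 1 region called in one direction. Slc24a2 had 2 gained regions of 13, Abcc4, an efflux transporter that also exports cyclic AMP, 2 of 26, and Aff3 2 of 44, and Abcc4 and Aff3 each also had 1 lost region. Of the 25 genes with 2 or more lost regions, the shares were highest in Scaf8 with 2 of 2, Rbm19 with 2 of 8 and Arid2 with 2 of 9. Arid2 is a subunit of a chromatin remodelling complex. The lowest share was 2 of 55, in St6galnac3. Of all regions 0.309% were gained and 0.886% lost. The protocadherin gene models Gm37013, Gm38666 and Gm38667, 889, 874 and 868 kb long, overlap and share 3 lost regions. Each of them is counted among the 25. These genes, and the 2 microRNA genes under called regions whose mature sequences follow with the seed (bases 2 to 8) in capitals, were picked after their values were seen.

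mmu-miR-6397: uGGAGACUuucaguggaguga
mmu-miR-6418-5p: uCAGGGGAagggaagagaugc
mmu-miR-6418-3p: aCUGCAACcuccuuucuccagg

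Mir6397 lies within Scp2, a lipid transfer protein gene, under a gained region on chromosome 4 from 108086495 to 108087446 with a lowest score of 68.7. Mir6418 lies within Gnb2, a G protein beta subunit gene, under a lost region on chromosome 5 from 137528341 to 137529587 with a lowest score of 60.3. Both regions were also called with equal lists, and 6 and 8 of the 12 later libraries had a peak there. The 3 mature sequences have different seeds.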

How the data were processed

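MeDIP-seq was done on 3 mice a group. The authors deposited 1 peak list per library, with chromosome, start, end, name and score, so peaks were called per library. Bowtie2, MACS2 and build mm10 are named in the submitters' processing notes without options, and use of an input library is not given in the sources used here. The deposited score has no stated scale. Read depth is unknown, so no counting interval is given. Positions are counted from 1. Gene and promoter tables are of GRCm38.p6, and 4.13% of the promoter windows touched a region, against 8.60% and 8.53% after moving them by 10000 bases.

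Peaks sharing at least 1 base were merged over the 6 libraries (Python 3.11.15, pandas 2.3.3, numpy 2.4.6), and the calls were tested on simulated data. Strand was known for 17492 of 21887 protein-coding genes. Group values were compared by exact permutation tests with Benjamini-Hochberg adjustment. Named regions are the 10 gained and 10 lost with the highest lowest score among those also called with equal lists, the same at promoters with all peaks, every called region of a listed gene, and 5 each by later presence, of which 1 is not reported here. The comparison, members and lists were chosen with earlier results of these data known. Same-numbered libraries did not deviate together.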

Additional observations from a re-analysis of the deposited data

How the results depend on the processing

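Gained regions, 331 in number, became 148 with a score of at least 70, 481 with equal lists, 432 with lists of 34255 peaks, 380 with 50% of the region covered and 332 with merging within 500 bases. Lost regions, 950 in number, became 559, 502, 472, 933 and 934 in the same order. Without any 1 library, which loosens the rule by construction, there were 615 to 1554 gained and 1491 to 3252 lost regions. Lost regions of listed genes went from 15 to 9 with equal lists. No group difference passed its threshold under any alternative, which 3 against 3 libraries cannot do. Without 1 library the differences ran from -10731 to -2409 peaks, -8.31 to -0.958 Mb, -15.1 to 105 bases of width, -0.0379 to 0.0450 points at promoters, -1.53 to -0.405 points in genes and -0.0106 to 0.00540 for the Jaccard index. The sign turned for Mb with equal lists (1.39), and for the promoter share with midpoints (-0.0561) and with both gene ends (-0.0312), the last chosen after seeing the data; the cause was not tested.

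Replicate numbers were shared by the groups, but same-numbered libraries did not deviate together over regions (correlations of -0.0156, -0.0505 and -0.0180). With the numbers as a replicate block the exact permutation p was 0.75 for peak number (-6830), Mb (-4.99), width (57.0) and gene share (-1.04) and 1 for the promoter share, where 0.25 is the smallest possible, and no call changed.

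With equal lists the span under peaks turned to 0.136 points for hypoxia, 0.0624 for contractile, 0.0301 for calcium, 0.0881 for channel, 0.121 for adrenergic, 0.0262 for fatty acid, 0.125 for cell death, 0.334 for endothelial and 0.111 for leukocyte genes. Without 1 library it ran from -1.07 to 0.0619 for hypoxia, -0.552 to 0.221 for contractile, -0.549 to 0.0131 for channel, -0.367 to 0.0367 for fatty acid, -0.189 to 0.125 for cell death, -0.663 to 0.416 for inflammation, -0.195 to 0.510 for DNA methylation, -1.03 to 0.133 for endothelial, -0.133 to 0.732 for fibroblast and -1.28 to 0.170 for mural cell genes. Of 67 named regions, 46 were also called with equal lists, 59 with 50% of the region covered and 26 with a score of at least 70. The 10 gained and 10 lost regions ranked first by score were chosen as called with equal lists. They count in the 46 by that choice, and in the 26 because the ranking took the highest lowest scores. These 3 alternatives only take peaks away, so no call could reverse. Since depth is unknown, a missing peak near the lowest score of 50 cannot be told apart from a shallower library.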
